A study of Homo sapiens with 12 samples.

Results

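PRDM1 and 6 relatives, PRDM2, PRDM4, PRDM8, PRDM10, PRDM11 and PRDM15, are genes of the PR domain family whose mRNAs carried m6A peaks in K1 papillary thyroid cancer (PTC) cells. They make up 7 of the 7623 genes with a peak in any list. They were selected on the peak lists themselves, by gene name together with the position, length and enrichment of their peaks. For PRDM1, the selection also used which of its intervals each list holds. Since these measured values chose the genes, everything given for them is a description, and no test was run on them. K1 is an established human PTC cell line, and its cells received a control siRNA (si-NC) or an siRNA against FTO (si-FTO). There were 12 libraries, with 3 m6A IP and 3 input libraries in each group, and each IP library has 1 deposited peak list. The siRNA label of all 3 control IP libraries reads si-NC1, while their titles number them from 1 to 3. All cells are of 1 line, and whether the libraries stem from separate cultures is not stated in the labels or the methods.

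PRDM proteins are transcription regulators that join a PR domain, related to the SET domain of histone methyltransferases, to zinc fingers that bind DNA in most members. Some methylate histones themselves, and others repress their targets by recruiting methyltransferases, demethylases or deacetylases. PRDM1, also known as BLIMP-1, is best known as the repressor that drives B cells to become plasma cells. m6A is a methyl mark on adenosines of RNA that reader proteins recognise, often near stop codons and in 3' untranslated regions, and FTO is an enzyme that removes it. Knockdown of FTO therefore asks which mRNAs gain or lose m6A signal when this demethylase is reduced.

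The study lists 2 siRNAs against FTO, whose gene is on chromosome 16. Their sequences are shown as the study lists them, because the si-FTO group was treated with siRNA against FTO. The labels and methods do not assign either siRNA to a si-FTO library, so which of them each library received is unknown.
si-FTO-1: tcaccaaggagactgctattt
si-FTO-2: ctagggttttgcttccagaatt
Both are written 5' to 3', with 21 and 22 bases, and no part of them is set in capitals.

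MeRIP-seq pulls down RNA fragments with an m6A antibody, and a peak is an interval where reads of the pulled-down RNA (IP) outnumber those of the input. The lists hold 7921 to 8999 peaks each. Every peak has a fold enrichment of IP over input, a score that is the negative log10 of its p-value times 10, and an FDR in percent. The lowest score in the lists is 50 and the highest, 3100, is shared by 968 to 1031 peaks of a list, so peaks at 3100 cannot be ranked by score. The 3 values have no common scale across lists. A within-list percentile was therefore used, in which 100 is the peak with the highest fold enrichment of that list. The FDR of the PRDM peaks was between 19.8% and 100%, and the FDR was high throughout, with 3 peaks at or under 5% over all 6 lists. In si-NC 2 the median FDR of the list was 99.6%, against 41.15% to 50.4% in the other 5 lists. The depth of the libraries is unknown, since no read numbers were used. A list without a peak does not show that a site lacks m6A, and a higher mRNA level or a higher m6A share of an mRNA cannot be told apart from a peak list.

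The 7 genes held 73 intervals in the 6 lists, at 19 sites once overlapping intervals were joined. Of the 7 genes, 6 were in all 6 lists, and PRDM11 was in 2 lists. Among all genes with a peak, 49% were in all 6 lists. A site was in all 6 lists for 6 of the 19, where 36.5% of all joined regions were in all 6 lists, and 5 sites were in a single list. No site, and none of the 7 genes, was listed by every library of a single group alone. Over all genes, 2.28% were in every si-FTO list with none in si-NC, and 2.75% in every si-NC list with none in si-FTO. The number of intervals was 11, 15 and 12 for si-NC 1, 2 and 3 against 10, 14 and 11 for si-FTO 1, 2 and 3. The means were 12.7 ± 2.08 (SD, n = 3) and 11.7 ± 2.08 (SD, n = 3), so the groups overlapped. The difference of 1 interval (si-NC minus si-FTO) became -0.167 without si-NC 2 and 2.17 without si-FTO 2. The median fold percentile of the intervals also overlapped, with 41.2, 52.5 and 36.8 in si-NC against 54.1, 47.9 and 41.0 in si-FTO. The intervals were long, with a median of 1009 bp against 676 bp over all peaks.

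By the percentile of the strongest interval, the genes stood in one order in si-NC and in another in si-FTO. In si-NC the order of the means was PRDM8 at 92.9 ± 0.880, PRDM2 at 75.8 ± 4.61, PRDM15 at 69.4 ± 1.85, PRDM10 at 60.9 ± 0.751, PRDM1 at 46.8 ± 8.92 and PRDM4 at 24.5 ± 11.2 (SD, n = 3 each). The values of PRDM2 and PRDM15 overlapped, while the other neighbours in the order did not overlap. In si-FTO the order was PRDM8 at 84.0 ± 1.75, PRDM1 at 79.1 ± 5.24, PRDM2 at 71.4 ± 1.08, PRDM10 at 62.2 ± 3.66, PRDM4 at 56.5 ± 1.67 and PRDM15 at 37.9 ± 7.39 (SD, n = 3 each). There, the values of PRDM8 and PRDM1 overlapped, as did those of PRDM10 and PRDM4, where the lowest of PRDM10 (58.1) lay below the highest of PRDM4 (58.5), and the other neighbours did not. PRDM1 and PRDM4 were higher in every si-FTO list than in any si-NC list, and PRDM8 and PRDM15 were lower. These are 2 of 6 genes in each direction, where the same held for 14.2% of the 3732 genes in all 6 lists in the higher direction and for 16.2% in the lower. The percentile of the score was higher in every si-FTO list for PRDM1 and PRDM4, a pattern of 12.5% of all genes in 6 lists. These shares stand beside the counts as background, and nothing is read from them because the same values chose the genes.

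**Figure D1:**
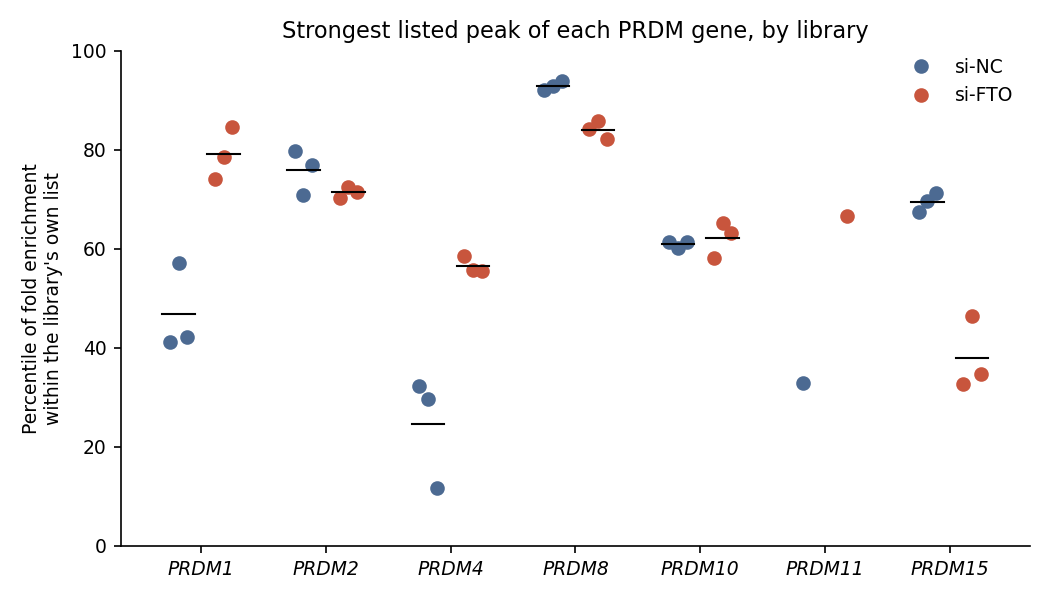
Within-list fold enrichment percentile (0 to 100, y axis) of the strongest interval of each PRDM gene, with 1 point per library and black lines for the group means. PRDM1 lay at 41.2 to 57.1 in si-NC and 74.1 to 84.6 in si-FTO, PRDM15 lay at 67.5 to 71.2 in si-NC and 32.7 to 46.4 in si-FTO, and PRDM11 has a point for si-NC 2 and si-FTO 2 only.

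PRDM1 lies on chromosome 6 and is read from low to high positions. Its mRNA (NM_001198 in the lists) had 2 intervals, separated by a gap of 977 bp. The first, at chr6:106552700-106553808 and 1109 bp long, was listed with the same bounds in all 3 si-NC lists, in si-FTO 2 and in si-FTO 3, and was not listed in si-FTO 1. The second began at 106554786 and was listed in si-NC 1, 2 and 3 to 106555794 (1009 bp). In si-FTO 1 the second interval reached 106556548 (1763 bp), which is 754 bp farther, and it was not listed in si-FTO 2 or 3. Thus every si-NC list held both intervals and every si-FTO list held 1 of them, with the second in si-FTO 1 and the first in si-FTO 2 and 3. This split ended when only the upper 75% of fold enrichment of each list was kept, which left 1, 2 and 1 intervals in si-NC and 1 in each si-FTO list, a mean difference of 0.333 instead of 1. The intervals covered 2118 bp in each si-NC list, 1763 bp in si-FTO 1 and 1109 bp in si-FTO 2 and 3. Fewer intervals in every si-FTO list than in any si-NC list was seen in 1 of 6 of these genes, against 2.87% of genes in all 6 lists, and more intervals in 0 of 6, against 2.52%. The 1 gene was PRDM1. Which of its intervals each list holds was used in selecting it, so nothing is read from this count.

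The PRDM1 intervals listed in si-FTO had higher percentiles than those in si-NC. For the first PRDM1 interval the fold enrichment was 6.49, 6.0 and 5.08 in si-NC 1, 2 and 3, and 10.53 and 12.40 in si-FTO 2 and 3. Its percentile was 41.2, 34.9 and 21.6 in si-NC against 78.6 and 84.6 in si-FTO 2 and 3, so the listed values did not overlap. Its score was 286.24, 240.64 and 110.12 in si-NC against 2354.05 and 2213.58 in si-FTO 2 and 3. All si-NC scores were below both of these. In si-FTO 1 the first interval was not listed, and the share of all regions with such a split was not counted. For the second interval the fold enrichment was 5.24, 7.74 and 6.42 in si-NC and 9.83 in si-FTO 1. Its percentile was 22.9, 57.1 and 42.1 in si-NC and 74.1 in si-FTO 1. The score of this interval was 82.62, 177.72 and 84.15 in si-NC and 1259.76 in si-FTO 1. The single si-FTO value of the second interval was thus above the 3 si-NC values in fold enrichment, percentile and score. The strongest PRDM1 interval by fold enrichment was the first in si-NC 1, si-FTO 2 and si-FTO 3 and the second in si-NC 2, si-NC 3 and si-FTO 1, so its percentile also joins values of different sites. In percentiles of the score, the strongest PRDM1 interval was at 43.1, 39.2 and 20.7 in si-NC and at 74.6, 84.3 and 82.9 in si-FTO. The FDR of the first interval was 55.25%, 100% and 59.14% in si-NC against 26.94% and 26.47% in si-FTO. The FDR of the second was 77.44%, 100% and 59.97% in si-NC and 25.01% in si-FTO 1. With si-FTO 1 left out, the second interval was found in si-NC alone, in all 3 lists, so 1 library decides whether that site counts as listed in both groups. No peak under any other gene name overlapped either interval.

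**Figure D2:**
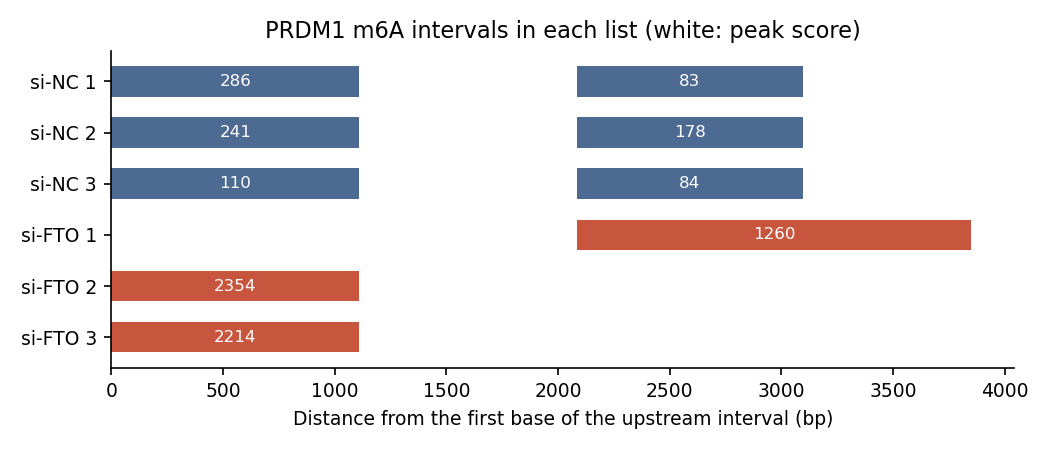
PRDM1 intervals in each of the 6 peak lists, with distance in bp from the lowest position of the region on the x axis, libraries on the y axis and the score printed at each interval. Both intervals appear in all 3 si-NC lists, and each si-FTO list has 1, the longer second interval in si-FTO 1 and the first in si-FTO 2 and 3.

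PRDM4, on chromosome 12 and read toward lower positions, encodes a zinc finger protein that binds the p75 neurotrophin receptor, and the lists place it in neurotrophin signaling. Its mRNA had 2 sites, both in all 6 lists with identical bounds in each. At chr12:108126643-108128299 (1657 bp), the site on the 3' side, the fold enrichment was 5.82, 5.66 and 4.19 in si-NC against 7.65, 7.36 and 7.48 in si-FTO. The percentile was 32.3, 29.6 and 9.22 in si-NC against 58.5, 55.6 and 55.5 in si-FTO. All 3 si-FTO lists were above all 3 si-NC lists, and si-NC 3 was the lowest. The score of this site was 629.35, 481.34 and 169.62 in si-NC against 1226.07, 1565.22 and 1203.40 in si-FTO.

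At the second PRDM4 site, chr12:108145192-108145986 (795 bp), 16892 bp away in the genome, the fold enrichment was 4.45, 5.11 and 4.38 in si-NC against 5.52, 5.29 and 5.26 in si-FTO. The percentile was 11.8, 21.3 and 11.6 in si-NC against 30.1, 27.2 and 26.2 in si-FTO, again without overlap. Its score did not follow the same split, with 467.54, 435.58 and 271.37 in si-NC against 372.55, 323.83 and 486.71 in si-FTO. In si-NC 3 this site was the strongest PRDM4 interval by fold enrichment and by score, at a fold percentile of 11.6 against 9.22. In the other lists the 1657 bp site was the strongest. The percentiles of the strongest PRDM4 interval thus join values of different sites. Of the 6 sites of these genes in all 6 lists, 2 had a higher percentile in every si-FTO list, which were both of PRDM4, against 16.9% of all regions in 6 lists, and 1 had a lower percentile, against 14.6%.

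**Figure D3:**
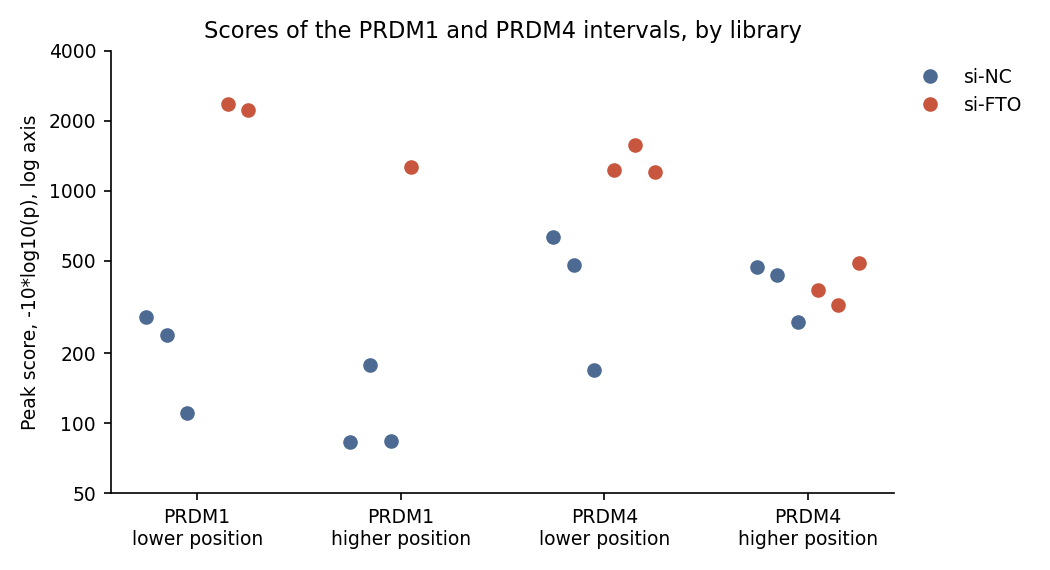
Score of each PRDM1 and PRDM4 interval in each library on a log axis, where the score is the negative log10 p-value times 10 as the lists give it. The first PRDM1 interval lies at 110.12 to 286.24 in si-NC and at 2213.58 and 2354.05 in si-FTO, while the 795 bp site of PRDM4 lies at 271.37 to 486.71 over both groups.

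PRDM8, on chromosome 4, encodes a repressor known from the developing nervous system and retina of mice. It had the highest fold enrichment of these genes in 5 of the 6 lists, and in si-FTO 3 PRDM1 was above it. The site at chr4:81123068-81125483 was in all 6 lists, with a common start and a length between 2393 and 2416 bp. Its fold enrichment was 16.07, 17.05 and 16.90 in si-NC against 12.17, 12.55 and 11.64 in si-FTO. The percentile was 92.1, 92.9 and 93.8 in si-NC against 84.2, 85.7 and 82.2 in si-FTO, lower in every si-FTO list. The score was 3100, the highest value of the lists, in 5 of the 6 and 2578.16 in si-FTO 1. A second interval of 249 bp, at chr4:81106424-81106672, was listed in si-NC 1 only, with a fold enrichment of 4.33 and a score of 214.17.

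PRDM2, on chromosome 1, also known as RIZ, encodes a histone methyltransferase that binds the retinoblastoma protein. It had the longest interval of the 73, chr1:14104913-14109326 (4414 bp, under NM_012231), with the same bounds in all 6 lists. Intervals of at least 3000 bp made up 5.38% to 6.38% of a list. The fold enrichment at this site was 11.09, 9.40 and 10.14 in si-NC against 9.20, 9.37 and 9.46 in si-FTO. The percentile was 79.8, 70.8 and 76.9 in si-NC against 70.3, 72.5 and 71.5 in si-FTO, so the groups overlapped through si-NC 2. The score was 3100 in all 6 lists.

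The second site of PRDM2 began at 14113010 and is listed under another transcript, NM_015866. It was not listed in si-NC 1, and it was 1003 and 922 bp long in si-NC 2 and 3 and 1241, 1081 and 1100 bp in si-FTO 1, 2 and 3. The lengths did not overlap. Its fold enrichment overlapped, at 7.08 and 5.30 in si-NC against 6.15, 5.58 and 6.23 in si-FTO. Its score was 566.60 and 254.09 in si-NC against 72.72, 85.25 and 132.96 in si-FTO. In percentiles of the score it was at 59.8 and 42.1 in si-NC against 8.84, 13.2 and 23.7 in si-FTO, lower in every si-FTO list. The share of all regions with such a split was not counted. A further site, chr1:14151256-14151574 (319 bp), was in si-NC 3 only with a fold enrichment of 5.16 and a score of 71.91. The interval counts of PRDM2 were 1, 2 and 3 in si-NC against 2, 2 and 2 in si-FTO, so the spread between the control lists was as wide as any difference from si-FTO.

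PRDM10, on chromosome 11 and read toward lower positions, encodes a transcription factor known to activate the folliculin gene FLCN. Its 20 intervals fell at 6 sites, of which 2 were in all 6 lists. The site nearest the 3' end, within chr11:129770984-129772411, was not listed in si-NC 1. Its length was 699 and 767 bp in si-NC 2 and 3 and 1428, 1330 and 1425 bp in si-FTO 1, 2 and 3. The fold enrichment of the same site was 7.35 and 8.04 in si-NC against 7.62, 6.84 and 8.28 in si-FTO, so the intervals were longer in every si-FTO list at overlapping enrichment. A length above every si-NC list was found for 2 of 11 sites held by at least 2 lists of each group, this one and the second PRDM2 site, against 7.73% of all such regions. A shorter length in every si-FTO list was found for 0 of 11, against 1.91%.

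The neighbouring PRDM10 site, within chr11:129784227-129784913, was in all 6 lists with a fold enrichment of 8.21, 8.03 and 5.82 in si-NC against 6.89, 8.36 and 5.24 in si-FTO. Its length was 576, 633 and 498 bp in si-NC against 687, 488 and 499 bp in si-FTO, and neither value separated the groups. The next site upstream, chr11:129785555-129785755, had the shortest intervals of these genes, 201 bp in all 6 lists. Its fold enrichment was 6.76, 7.99 and 6.28 in si-NC against 6.30, 4.77 and 4.15 in si-FTO. In si-FTO 1 this site was between the control values, and in si-FTO 2 and 3 it was below them. The score was 128.68, 193.33 and 127.09 in si-NC against 201.67, 60.06 and 57.24 in si-FTO, so that si-FTO 1 was the highest of the 6 and the other si-FTO lists were near the smallest score listed. The remaining sites were each in 1 list, with 2 in si-FTO 2, at scores of 53.94 and 116.64, and 1 in si-NC 2, at 57.92.

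PRDM15, on chromosome 21 and read toward lower positions, encodes a regulator of Wnt and MAPK signaling genes in mouse embryonic stem cells. It had 3 sites, none of them in all 6 lists. The site nearest the 3' end, within chr21:43220180-43221882, was listed in si-NC 1, 2 and 3 with a fold enrichment of 5.26, 5.07 and 9.25, and in si-FTO 2 and 3 with 6.62 and 4.56. The groups overlapped, and si-NC 3 was the highest. The middle site, chr21:43259732-43259962 (231 bp), was in 2 lists of each group. Its fold enrichment was 8.98 and 9.23 in si-NC 1 and 2 and 5.68 and 5.81 in si-FTO 1 and 3, and its score was 251.70 and 248.70 against 58.95 and 82.62. The upper site, chr21:43274675-43274927 (253 bp), was in si-NC 2 with a fold enrichment of 7.61 and in si-FTO 2 with 5.69. The strongest PRDM15 interval was the middle site in si-NC 1 and 2, likewise in si-FTO 1 and 3, and the 3' site in si-NC 3 and si-FTO 2. The lower percentile of PRDM15 in every si-FTO list thus joins values of different sites.

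**Figure D4:**
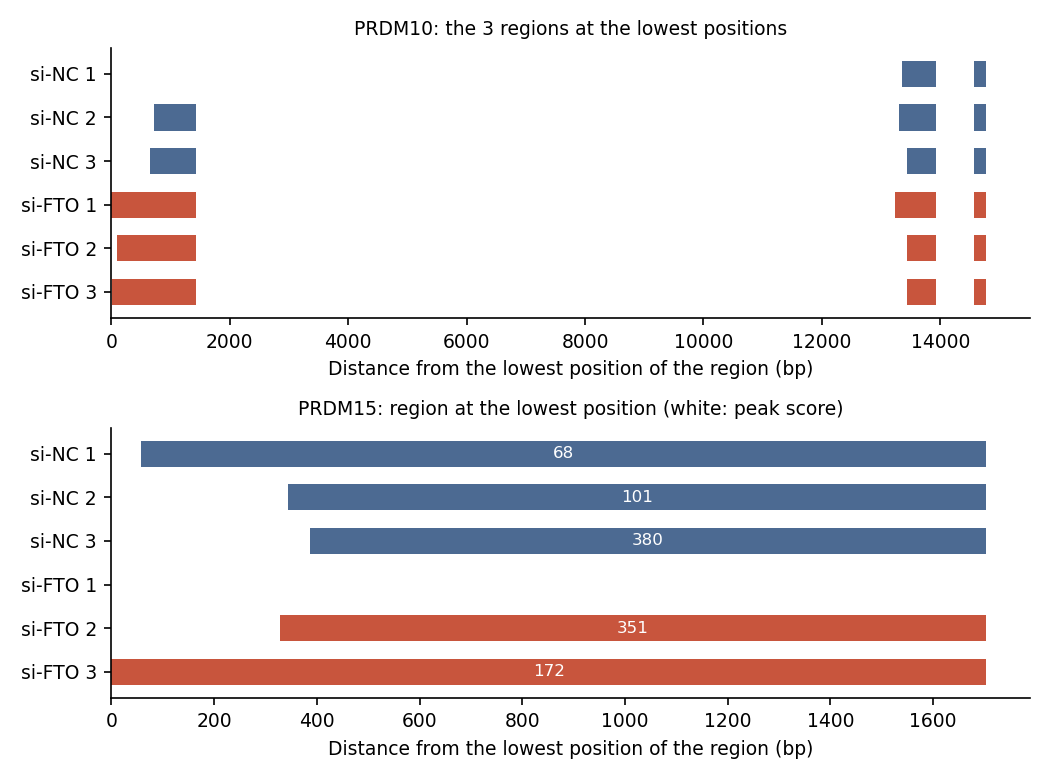
Intervals at the 3 lowest-lying PRDM10 sites and at the lowest-lying PRDM15 site in each of the 6 peak lists, with distance in bp from the lowest position shown on the x axis and libraries on the y axis. Sites at higher positions are not drawn. The lowest-lying PRDM10 interval is 699 and 767 bp long in si-NC 2 and 3 and 1330 to 1428 bp in si-FTO. The PRDM15 site shown is not listed in si-FTO 1, whose PRDM15 interval lies at a site not drawn.

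PRDM11, on chromosome 11, was the least often listed of the 7. Its single site began at 45234020 and was in si-NC 2, with 886 bp and a fold enrichment of 5.87, and in si-FTO 2, with 1594 bp and 8.53. Its score was 95.29 and 94.80. With 1 list in each group, the difference in length and in fold enrichment has no replicate check.

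The edges of the sites were compared between lists. Of the 14 sites in more than 1 list, 7 (50%) had both edges the same in every list, against 66.8% of 10332 such regions over all genes. In the other 7 exactly 1 edge was shared, and by the strand that RefSeq gives for each gene it was the edge on the 5' side of the gene in all 7. Among all regions of 1 gene with 1 shared edge, this was so in 76.7% of 2384, so it is common over all genes too. The intervals of PRDM1, PRDM2, PRDM8, PRDM10, PRDM11 and PRDM15 at these sites thus differed between libraries by how far they ran toward the 3' end. Over the 7 genes the median interval length of a list was 1009, 886 and 965.5 bp in si-NC against 1334.5, 1095 and 1109 bp in si-FTO, with means of 953.5 ± 62.4 and 1179.5 ± 134.4 bp (SD, n = 3 each). All si-FTO lists were above all si-NC lists, while the median over all peaks was 667 to 694 bp in si-NC and 656 to 684 bp in si-FTO. Length was among the values that chose the genes, and the median also depends on which sites a list holds. Site by site, 2 of 11 sites held by at least 2 lists of each group were longer in every si-FTO list.

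Other PRDM family genes were searched in the same lists. MECOM, also known as PRDM3, a regulator of blood stem cells, was in all 6 lists with 6, 5 and 6 intervals in si-NC against 5, 4 and 5 in si-FTO. Its region at chr3:168801287-168802831 was in all 3 si-NC lists, with a fold enrichment of 5.6, 5.22 and 6.11, and in no si-FTO list. At chr3:169381124-169381563, its strongest region in each list, the percentile was 96.3, 89.4 and 98.0 in si-NC against 88.1, 90.3 and 89.9 in si-FTO. The percentiles overlapped, while the score there was lower in every si-FTO list (679.67 to 759) than in si-NC (1167.72 to 1692.29). At chr3:168833171-168834527 the percentile was lower in every si-FTO list, against 14.6% of all regions in 6 lists. The share of all regions with a listing in si-NC alone, or with such a score split, was not counted. ZNF408, also known as PRDM17, had 1 interval of 1564 bp in all 6 lists. Its percentiles were 51.4, 59.1 and 59.0 in si-NC against 11.7, 45.6 and 12.3 in si-FTO. They were lower in every si-FTO list, a pattern of 16.2% of the genes in all 6 lists, while its scores overlapped between the groups. PRDM6 was in si-NC 3 only. PRDM7, PRDM9, PRDM12, PRDM13 and PRDM16 were in no list.

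Genes whose proteins work with PRDM factors were searched as well. Of 15 such partners, 8 had a peak and 6 were in all 6 lists. EHMT2, the histone methyltransferase also called G9a that PRDM1 recruits, was at percentiles of 87.0, 85.1 and 84.6 in si-NC against 73.7, 81.5 and 89.7 in si-FTO, and the groups overlapped. TLE1, a Groucho corepressor, had 2, 3 and 2 intervals in si-NC and 1 in each si-FTO list, the only one of the 6 with fewer in every si-FTO list. The percentile was higher in every si-FTO list for TLE4, with 61.3, 69.4 and 50.4 against 80.0, 86.9 and 73.3. It was lower for TLE3, with 73.8, 83.2 and 78.9 against 51.7, 67.8 and 42.6. It was also lower for CTBP1, with 23.7, 25 and 39.2 against 2.66, 5.04 and 16.2. The deacetylase gene HDAC2 had 2 intervals in each si-NC list and none in si-FTO. The demethylase gene KDM1A overlapped between the groups, with 53.0, 62.2 and 19.8 against 39.4, 55.5 and 73.7, and CTBP2 was in 2 lists of each group. Among all genes, the shares already given were 2.87% for fewer intervals, 14.2% for a higher percentile, 16.2% for a lower one and 2.75% for a listing in every si-NC list alone. CTBP1, HDAC2, KDM1A and CTBP2 lie outside the limit of 4 names per gene list and were added after their values were seen.

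Of 8 genes of the PRDM1 network in lymphocytes, 4 had a peak. BCL6, the repressor of the germinal centre B cell that PRDM1 opposes, was in all 6 lists at percentiles of 39.3, 60.4 and 52.8 in si-NC against 34.2, 49.6 and 46.6 in si-FTO. BACH2, a repressor of PRDM1 in B cells, was also in all 6 lists, at 82.2, 60.6 and 66.9 in si-NC against 64.5, 78.9 and 81.1 in si-FTO. Both overlapped between the groups. CIITA, the activator of MHC class II genes that PRDM1 represses, was in every si-FTO list, at percentiles of 3.01, 12.0 and 7.97, while no si-NC list held it, a pattern of 2.28% of all genes. These percentiles are near the bottom of the lists. XBP1 was in si-NC 3 only. None of the 4 lymphoid marker genes searched had a peak. Of 7 thyroid follicular marker genes, FOXE1 was the 1 with a peak. It was at percentiles of 74.2, 69.2 and 67.6 in si-NC against 45.0, 46.4 and 56.8 in si-FTO. The values were lower in every si-FTO list, a pattern of 16.2% of the genes in all 6 lists. A gene without a peak may still be expressed, so these lists do not check the cell type.

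PRDM1 shared its interval counts, 2 in every si-NC list and 1 in every si-FTO list, with 56 other genes. Those nearest to it in the percentile of the strongest interval were CLTB, with a mean absolute difference of 8.25 percentile points over the 6 lists, STAC with 10.7, GOLGA2 with 14.9, SNRPC with 16.3 and RAB3GAP1 with 18.5. CLTB, which encodes a clathrin light chain, was at 67.1, 58.8 and 40.2 in si-NC against 73.9, 61.9 and 81.4 in si-FTO, and its groups overlapped. STAC and RAB3GAP1 overlapped as well. GOLGA2, at 57.0, 46.3 and 62.8 against 91.7, 93.6 and 75.3, was higher in every si-FTO list. So was SNRPC, but only barely, at 75.4, 75.9 and 78.1198 against 81.4, 78.1228 and 83.4. These genes were picked for closeness to the percentiles of PRDM1, so a shared direction is partly built in and nothing is read from it. Among all genes in 6 lists, 14.2% were higher in every si-FTO list.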

How the data were processed

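RNA of K1 cells was depleted of rRNA and enriched with an m6A antibody kit, and IP and input libraries were sequenced on an Illumina HiSeq instrument. CASAVA 1.8 and BWA are named in the processing notes of the submitters. The deposited peak identifiers name MACS, and its settings are stated neither in the labels nor in the methods. The authors deposited 1 list of hg19 (GRCh37) peaks per IP library, with a gene name, a fold enrichment of IP over input (a ratio), a score of 10 times the negative log10 p-value and an FDR in percent. A score of 50 equals a p-value of 1e-05. In each list 1 emptied line was left out, and 0 columns lacked a sample.

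Groups came from the labels. The PRDM genes and the gene lists were chosen with earlier results of these data known. Positions were counted from 1. Peaks of all lists overlapping by at least 1 bp were joined into sites, and fold enrichment and score were ranked within each list. All 7 PRDM genes are named, and of each gene list up to 4 genes, those in most lists first and then those with the highest of their lowest percentiles. Genes most like PRDM1 had the same interval counts and the smallest mean absolute difference in percentile. No test was run, and 0.1 is the smallest p that an exact test of 3 against 3 libraries can give. Strands are those of RefSeq for GRCh38.p14 and no coordinate of that build was used. siRNA sequences were read from the study's supplement. Python 3.11.15, pandas 2.3.3 and numpy 2.4.6 were used, and counting was tested on simulated lists. Alternatives were leaving out each library, a stricter fold enrichment limit, lists of equal length, another overlap rule and presence at the most often listed site. Exons, UTRs and peak sequences were not analysed here. The result of 1 gene searched is not reported here. Depth is unknown, so no counting interval is given.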

Additional observations from a re-analysis of the deposited data

How the results depend on the processing

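Keeping only the upper 75% of fold enrichment in each list changed the most. PRDM1 then had 1, 2 and 1 intervals in si-NC against 1, 1 and 1 in si-FTO, a mean difference of 0.333 instead of 1. The mean number of PRDM intervals went from 1 more in si-NC to a difference of -1.33, the sites in all 6 lists went from 6 to 3, and 1 site, the 795 bp site of PRDM4, was found in every si-FTO list and in none of si-NC, where there had been 0 such sites. Leaving out each library in turn gave 0 to 1 such sites (the second PRDM1 interval, without si-FTO replicate 1). Over the whole series it gave 134 to 171 genes with fewer intervals in every si-FTO list instead of 107, and 130 to 159 with more instead of 94. With a list left out the condition is easier to meet, so these whole-series counts can only stay or rise. The PRDM1 difference was 1 in every such setting and in lists cut to 7921 peaks. Over all results and settings, 88 recomputed values stayed within their spread or within 1.5 times their count and 11 did not. Values that stayed could still change. The 6 genes in all 6 lists became 5 under the upper 75% limit, and 4 when their most often listed site had to be present. The difference in median fold percentile (si-NC minus si-FTO) went from -4.13 to 2.48 under the upper 75% limit. Some of the 11 are the whole-series counts with a list left out. The others arose under the upper 75% limit or without si-FTO replicate 1. The limit removed the PRDM1 intervals at percentiles of 22.9 in si-NC 1 and 21.6 in si-NC 3. It also removed the 795 bp PRDM4 site from si-NC 1, 2 and 3, at 11.8, 21.3 and 11.6. With each library left out in turn, the difference in median interval length (si-NC minus si-FTO) was -268.25 to -148.5 bp. Length was among the values that chose the genes, so this range is a description. No result comes from a test, and no paired analysis was run. The labels do not say that a shared replicate number pairs the libraries. The unknown depth limits every statement about an absent peak.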
